A study of Homo sapiens with 6 samples.

Results

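DNA replication and mitosis genes were compared between HepG2 cells carrying a hairpin against CHROME and HepG2 cells carrying a control hairpin. The 48 genes were matched by symbol from a list, and all 48 were among the 23368 distinct genes of the expression table and passed the filter on low values. They comprised 23 S-phase genes, which act before or during the copying of DNA, and 25 mitotic genes, which act when the copies are separated. HepG2, an established line from a human liver cancer, retains hepatocyte features. The libraries called shCHROME (3 replicates, a, b and c) came from cells expressing 1 hairpin, labelled SH3, from a pLKO vector; the protocol describes hairpins directed at every variant of CHROME, a long noncoding RNA. Cells of the EV libraries (3 replicates, also a, b and c) carried a hairpin without a target in the same vector. Both groups were transduced with virus made in HEK293T cells, an embryonic kidney line, were labelled as stable, and were grown in EMEM with serum. The level of CHROME was not analysed here, and no measure of its knockdown stands beside these genes. Whether the 3 libraries of a group are separate cultures is not given, so p-values reflect library-to-library spread that may be purely technical.

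Replication is licensed when CDC6 and CDT1 load the ring of MCM2 to MCM7 onto origins, and it starts when cyclin-dependent kinases and CDC7 turn that ring, with CDC45 and the GINS complex, into an active helicase. E2F transcription factors, which are released from retinoblastoma proteins after cyclin D activity, drive many of the genes needed for S phase. Mitotic genes such as cyclin B, CDK1 and the kinesins are transcribed later, from promoters that often combine CCAAT boxes with a cell cycle homology element read by the DREAM and MuvB complexes. Adult hepatocytes rarely divide, whereas HepG2 cells proliferate in culture, so both groups of genes are expressed in this line.

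Recovered read totals lay between 29188213 and 35429420 in the EV libraries and between 29477352 and 33911426 in the shCHROME libraries. Values are normalized read counts, meaning reads divided by a factor for the depth of each library. All 10 hepatocyte markers were present, and their summed value was 1434000 to 1554000 in EV and 1153000 to 1350000 in shCHROME. Of the 10, 6 were called lower, where 6.87% of all tested genes were, and 2 had positive log2 fold changes, neither called. Of 10 markers of embryonic kidney packaging cells, 3 passed the filter and NEFL and NEFM were at 0, with summed values of 2102 to 2213 in EV and 2196 to 2385 in shCHROME. Of 10 markers of endothelial, blood and stellate cells, 7 passed and DCN was at 0, with sums of 7769 to 8020 and 8251 to 9456. Within that list LYZ was called higher, from a mean of 4779 to 5887, and PDGFRB lower, from 374 to 189. The part of these markers in the results below was not tested.

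Of the 48 replication and mitosis genes, 2 passed the test. CENPF, a large kinetochore protein, rose 1.19-fold in shCHROME, and ECT2, the exchange factor that activates RhoA at the cleavage furrow, fell 1.23-fold. The other 46 genes did not pass the threshold, an adjusted p under 0.05 from limma on log2(value + 1) with Benjamini-Hochberg adjustment over 14598 genes. The call of CENPF compares with 3.64% of all tested genes called higher, and that of ECT2 with 6.87% called lower. In the authors' deposited table, whose adjusted p was under 0.05 for 9.04% of genes in either direction, CENPF (0.0411) and ECT2 (0.0179) were also the members under 0.05. In RNA from bulk cells, a change in the number of cells in S phase or mitosis and a change in RNA per cell cannot be told apart.

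Of the 48 members, 36 (75%) had a positive log2 fold change, against 52.2% of all tested genes, and their median log2 fold change was 0.10 against 0.01. The size of the excess depended on which library was left out. The 36 became 29 (60.4%, against 52.4% of all genes) without shCHROME b, 32 without shCHROME c, 32 without EV b and 40 without shCHROME a. Without EV a the count was 35, and without EV c it was 37. By role, positive values numbered 7 of 11 for licensing and helicase, 4 of 4 for DNA synthesis at the fork, 3 of 3 for nucleotide supply and 1 of 5 for entry into S phase. In the mitotic roles they numbered 4 of 4 for the cyclins and CDK1, 5 of 6 for kinases and checkpoint, 3 of 4 for centromere and kinetochore, 5 of 5 for spindle motors and binding proteins, 2 of 4 for exit and cytokinesis and 2 of 2 for MKI67 and TOP2A. None of these counts, and no difference between roles, was tested. Over all 48, the 3 shCHROME values lay above the 3 EV values for 6 genes, in a table where this held for 13% of genes, and below them for 5, where it held for 15%.

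**Figure D1:**
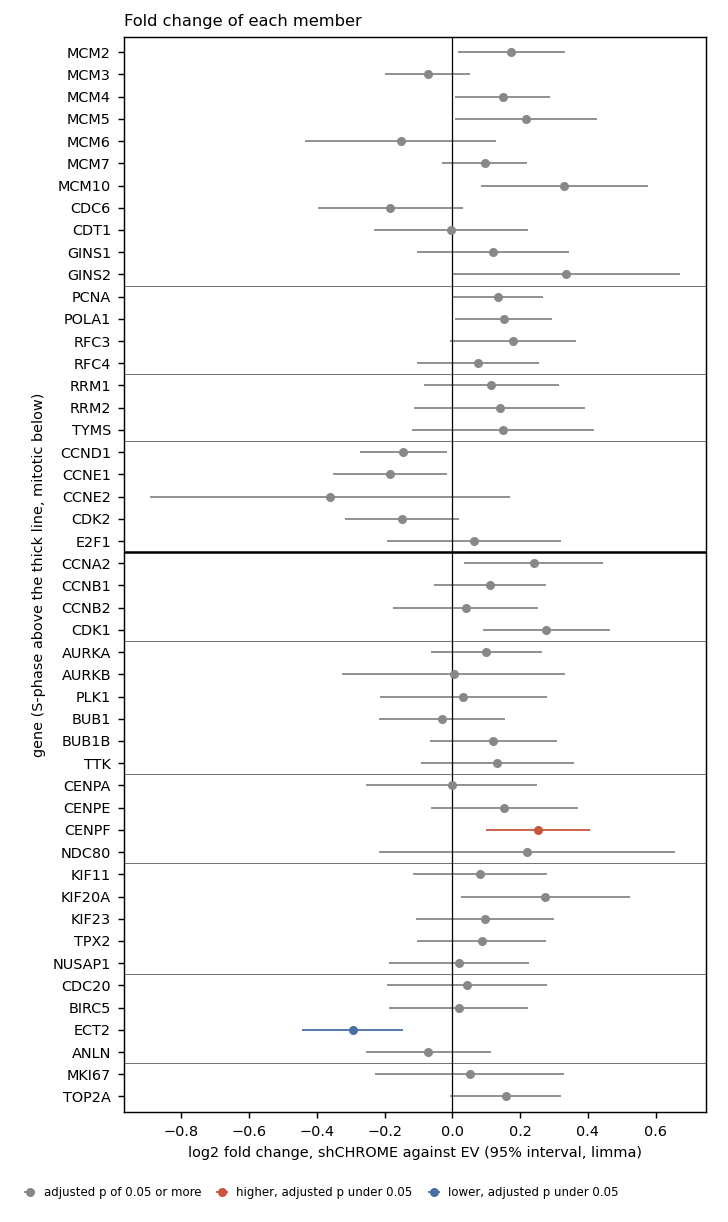
Log2 fold change of each of the 48 genes, shCHROME against EV, with its 95% interval from limma; the thick line separates S-phase genes (above) from mitotic genes (below) and thin lines separate roles. CENPF (red) and ECT2 (blue) are the genes with an adjusted p under 0.05, and CCNE2 has the widest interval, from -0.89 to 0.17.

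Replicate a of shCHROME stood apart for most of these genes. Replicate a was the lowest of the 3 shCHROME libraries in 40 of 48 members, and in 24 of 25 mitotic and 16 of 23 S-phase members, whereas it was the lowest in 34.7% of all tested genes. The median log2 difference of the mitotic genes from the EV mean was -0.06 in shCHROME a, 0.18 in b and 0.20 in c, and that of the S-phase genes -0.07, 0.13 and 0.17. Across all tested genes the same medians were 0.01 in each of the 3 libraries. The depth factor of each library holds that median nearly level, so it is no separate contrast. By these medians replicate a sat slightly below EV, and b and c sat above it. This did not hold in every role: the genes of DNA synthesis at the fork had medians of 0.11 in shCHROME a, 0.09 in b and 0.19 in c. Outside the 48, replicate a was also the lowest for the hepatocyte markers (-0.35, -0.17 and -0.20 in a, b and c). It was the highest for CDK inhibitors and growth arrest genes (0.06, -0.17 and -0.16). Of the 48 genes, 32 were above every EV library in shCHROME b, 32 in shCHROME c and 7 in shCHROME a, and 23 were below every EV library in shCHROME a against 6 in each of the others.

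The mitotic genes also varied more within the shCHROME group. The median coefficient of variation of the mitotic genes was 6.66% in EV and 11.0% in shCHROME, that of the S-phase genes 4.56% and 6.91%, and that of all tested genes 6.48% and 7.82%. Without shCHROME a, with 2 shCHROME libraries left, 6 members were called higher and 1 lower, in a table where 3.7% of genes were called higher and 7.23% lower. The 6 were CENPF (log2 fold change 0.34, limma adjusted p = 0.00154), TOP2A (0.26, 0.015), MCM5 (0.33, 0.0302), CDK1 (0.32, 0.0344), KIF20A (0.38, 0.0405) and TPX2 (0.22, 0.0494), and ECT2 was the lower one (-0.35, 0.00273). Since replicate a was picked out as the lowest of its group in most members, higher fold changes without it were fixed by that choice and support nothing. Without shCHROME b or without shCHROME c, no member was called higher. The median log2 fold change of the mitotic genes was 0.09 with all libraries, 0.19 without shCHROME a, 0.04 without b and 0.03 without c. That of the S-phase genes was 0.12 with all libraries, 0.16 without a, 0.07 without b and 0.07 without c. What set the library apart was not tested.

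**Figure D2:**
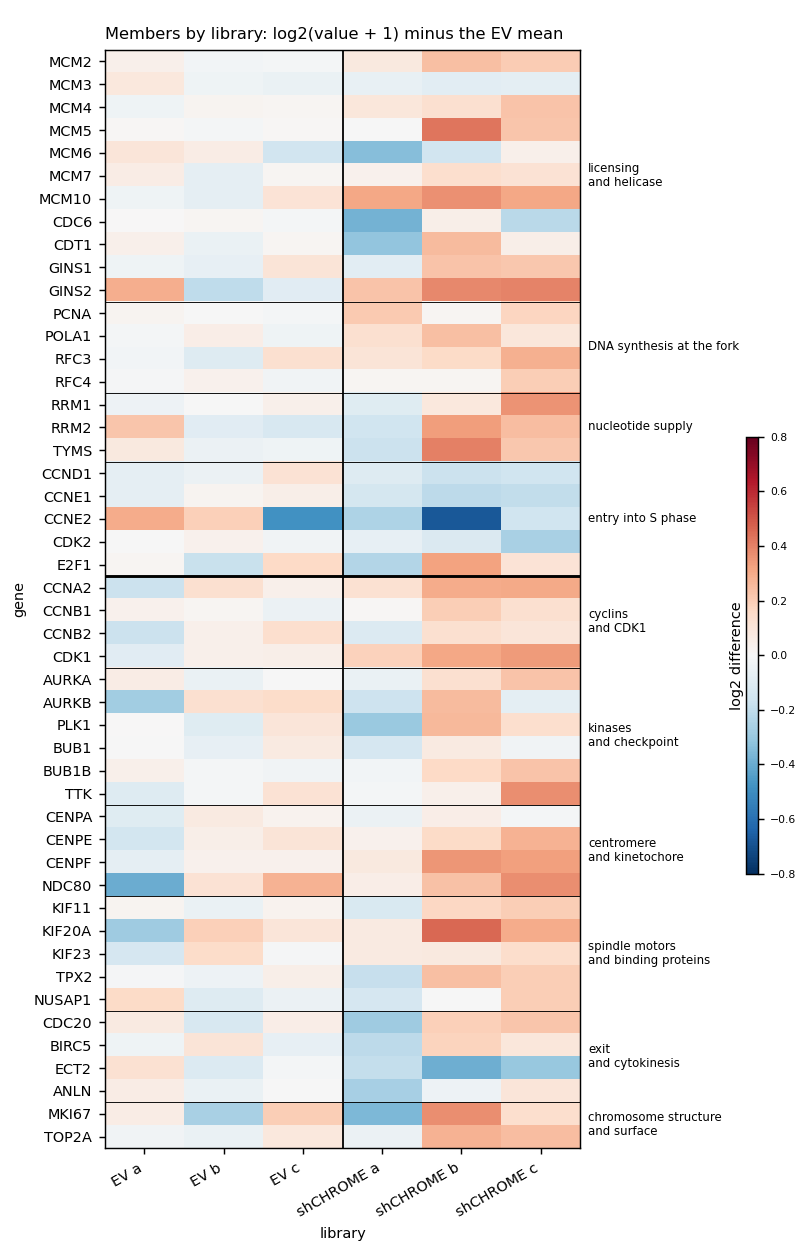
Log2(value + 1) of each gene (rows, by role; S-phase above the thick line, mitotic below) in each of the 6 libraries (columns), minus the mean of the 3 EV libraries; red is higher and blue is lower. Most rows are paler or bluer in shCHROME a than in shCHROME b and c, and the rows MCM3 (faintly), CCND1, CCNE1, CDK2 and ECT2 are blue in all 3 shCHROME libraries, as is CCNE2, which also varies within EV.

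**Figure D3:**
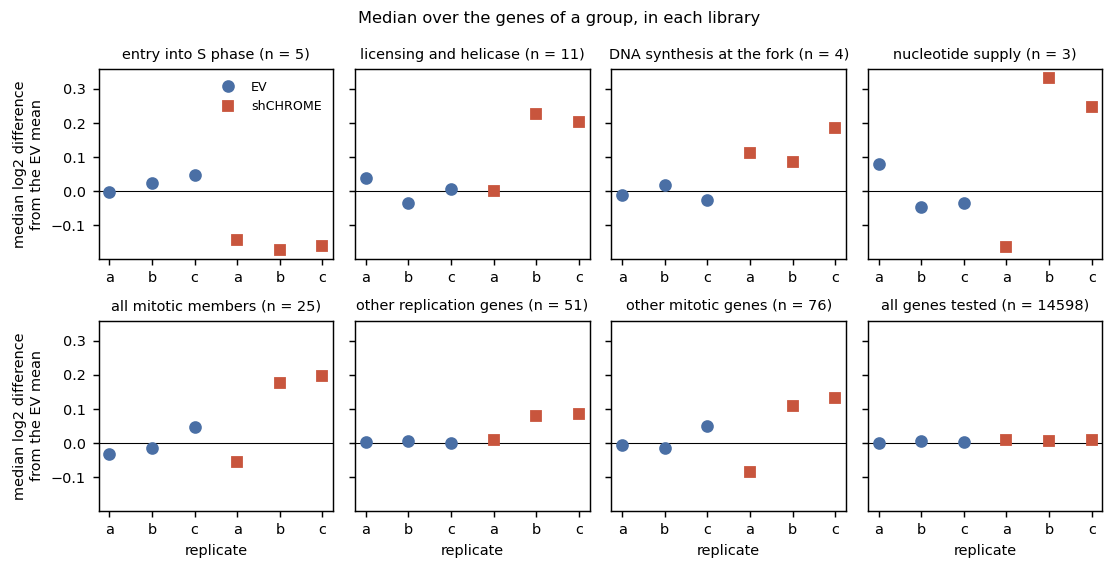
Median log2 difference from the EV mean in each library (EV in blue circles, shCHROME in red squares) for roles of the S-phase genes, all mitotic members, 2 wider lists and all tested genes. For the mitotic genes the medians are -0.06, 0.18 and 0.20 in shCHROME a, b and c, while the genes of entry into S phase lie at -0.14, -0.17 and -0.16.

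CENPF binds the outer kinetochore and accumulates in the G2 phase. It stood at 2244, 2408 and 2417 normalized read counts in EV a, b and c and at 2483, 3009 and 2957 in shCHROME a, b and c. Each shCHROME library was above each EV library, with replicate a close to the EV values. The log2 fold change was 0.25 (SE 0.07, 95% interval 0.10 to 0.41, n = 3 per group, limma adjusted p = 0.0319). The call was kept in 11 of 16 alternative analyses and was lost without EV a (adjusted p = 0.137), EV b (0.0503), EV c (0.0658), shCHROME b (0.113) or shCHROME c (0.161).

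ECT2 is needed for the contractile ring that divides the cell after mitosis. Its values were 3082, 2630 and 2809 in EV and 2488, 2161 and 2296 in shCHROME. All 3 shCHROME libraries were below all 3 EV libraries, and replicate a was the highest of the 3. Its log2 fold change was -0.29 (SE 0.07, 95% interval -0.44 to -0.14, limma adjusted p = 0.0119). The call was kept in 14 of 16 alternatives and lost without EV a (0.083) or shCHROME c (0.0564).

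Promoter sequences are printed for CENPF and ECT2, the genes called in opposite directions, for CDK1, the nearest gene to the threshold, and for MCM2 as an S-phase gene. They come from the RefSeq promoter table of build GRCh38.p14, in which 39 of the 48 members had an entry, and each runs from 250 bases before to 50 bases after an annotated transcription start. All 4 are on the plus strand: CENPF at chr1:214602945-214603244, ECT2 at chr3:172750476-172750775 (the first of 2 starts listed), CDK1 at chr10:60778228-60778527 (the second of 2 starts) and MCM2 at chr3:127598161-127598460. For a gene with 2 starts, the window with more of the marked letters is shown. Capitals mark the letters searched on both strands. These were CCAAT for the box of that name, TTTGAA and its variant spelling TTCGAA for the cell cycle homology element, and TTTGGCGC, TTTCCCGC, TTTCGCGC and TTTGCCGC for E2F. Marked letters of different kinds may overlap.
CENPF: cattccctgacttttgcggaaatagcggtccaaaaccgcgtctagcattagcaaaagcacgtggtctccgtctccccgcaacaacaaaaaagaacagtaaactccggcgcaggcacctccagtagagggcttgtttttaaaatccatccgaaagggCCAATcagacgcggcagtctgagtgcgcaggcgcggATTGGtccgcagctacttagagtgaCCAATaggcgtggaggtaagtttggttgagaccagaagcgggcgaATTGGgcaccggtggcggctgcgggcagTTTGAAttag
ECT2: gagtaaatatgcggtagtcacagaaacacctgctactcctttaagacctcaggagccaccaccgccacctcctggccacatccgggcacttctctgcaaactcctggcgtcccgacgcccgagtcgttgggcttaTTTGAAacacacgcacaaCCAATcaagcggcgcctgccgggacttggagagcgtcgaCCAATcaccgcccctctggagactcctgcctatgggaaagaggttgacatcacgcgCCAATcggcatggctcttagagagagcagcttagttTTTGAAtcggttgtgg
CDK1: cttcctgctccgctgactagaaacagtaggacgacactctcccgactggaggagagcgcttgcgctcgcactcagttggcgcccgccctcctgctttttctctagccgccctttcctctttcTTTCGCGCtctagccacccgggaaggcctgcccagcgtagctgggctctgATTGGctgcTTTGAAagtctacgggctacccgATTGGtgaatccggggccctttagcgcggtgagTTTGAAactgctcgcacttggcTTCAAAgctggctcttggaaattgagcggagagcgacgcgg
MCM2: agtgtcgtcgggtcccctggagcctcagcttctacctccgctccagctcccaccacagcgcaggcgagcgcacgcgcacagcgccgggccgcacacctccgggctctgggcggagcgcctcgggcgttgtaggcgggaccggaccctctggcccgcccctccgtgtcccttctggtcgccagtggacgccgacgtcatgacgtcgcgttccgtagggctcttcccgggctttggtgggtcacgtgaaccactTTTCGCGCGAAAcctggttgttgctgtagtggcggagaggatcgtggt

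The windows of CENPF and ECT2 held the same kinds of letters, and their transcripts moved in opposite directions. CENPF had CCAAT in 4 places and TTTGAA at base 41 after the start. ECT2 had CCAAT in 3 places and TTTGAA at bases -115 and 35. CDK1 held letters of all 3 kinds, with TTTCGCGC as its E2F letters. In MCM2 the same 8 E2F letters were read on both strands in an overlapping run just after the start. A match is a description of the letters, not a measured binding site.

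The S-phase and mitotic genes differed in these letters. E2F letters were in 13 of 18 S-phase genes (72.2%) and 3 of 21 mitotic genes (14.3%), against 3.99% of all 27305 genes of the promoter table. Cell cycle homology letters were in 16 of 21 mitotic genes (76.2%) and 2 of 18 S-phase genes (11.1%), against 19.5% of all. CCAAT, the box bound by NF-Y, was in 66.7% of the S-phase and 81% of the mitotic genes, against 39.7% of all. CCAAT and homology letters together were in 61.9% of the mitotic and 11.1% of the S-phase genes, against 7.85% of all. CCNE1 (log2 fold change -0.18), CENPE (0.15) and RFC4 (0.08) had none of these letters in their windows.

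Among the 11 genes of licensing and the helicase, 7 had a positive log2 fold change and the median was 0.12 (0.08 without shCHROME b). None was called. MCM10, which helps to activate the loaded helicase, stood at 195, 190 and 216 in EV and 249, 259 and 249 in shCHROME. The groups did not overlap, and replicate a was level with replicate c. Its log2 fold change was 0.33 (95% interval 0.08 to 0.58), a 1.26-fold difference, with a limma adjusted p of 0.0835, the lowest of the S-phase genes. It was called when libraries were scaled by their totals (adjusted p = 0.0469) and in no other of the 16 alternatives.

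Genes of the MCM ring had log2 fold changes of both signs, none called, and no difference between them was tested. MCM2 was 923, 882 and 886 in EV and 946, 1060 and 1033 in shCHROME, and MCM4 was 1418, 1475 and 1469 against 1550, 1586 and 1702. Both were higher in each shCHROME library than in any EV library, with log2 fold changes of 0.17 and 0.15 (limma adjusted p = 0.162 and 0.179). MCM3 was 3382, 3118 and 3082 in EV and 3063, 3013 and 3026 in shCHROME, lower in the latter. Its groups also did not overlap, but by a narrow margin, and its log2 fold change was -0.07 (adjusted p = 0.502). MCM5 was 558, 549 and 558 in EV and 555, 748 and 648 in shCHROME, so that replicate a sat within the EV values while b and c were above them (0.22, adjusted p = 0.189).

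MCM7, the member of this role with the highest mean normalized count over all 6 libraries, was 3214, 2937 and 3119 in EV and 3165, 3389 and 3344 in shCHROME (0.10, adjusted p = 0.366), with replicate a inside the EV range. MCM6 had a log2 fold change of -0.15 with a wide interval, -0.43 to 0.13. Of the loaders, CDC6 had a negative log2 fold change (-0.18) and CDT1 was level with EV (-0.005), with shCHROME a the lowest library for each. For CDT1, shCHROME b (990.5) and c (857.8) were above every EV library. The GINS subunits GINS1 (0.12) and GINS2 (0.34) were positive, with adjusted p of 0.55 and 0.206 in limma. About 30.7% of the annotated exon length of MCM2 overlaps an antisense gene, and whether reads were counted by strand is not stated, so its value is less certain.

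Per kilobase of exon, the EV level was highest for MCM3 (994 normalized counts per kilobase) and MCM7 (846), and lower for MCM4 (335), MCM2 (248), MCM5 (157) and MCM6 (57.8). The ring holds the 6 subunits in equal number, whereas their transcript levels spanned a wide range. In shCHROME the order was the same, with MCM3 at 944, MCM7 at 904, MCM4 at 371, MCM2 at 280, MCM5 at 184 and MCM6 at 52.1. Of the other loading genes, CDT1 was at 257 and 259 in EV and shCHROME, CDC6 at 121 and 107, GINS1 at 119 and 129, MCM10 at 43.2 and 54.3 and GINS2 at 43.4 and 54.3, a pair whose levels did not differ beyond their spread. Lengths are the union of exons in GENCODE release 29, which may not be the annotation used for counting.

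**Figure D4:**
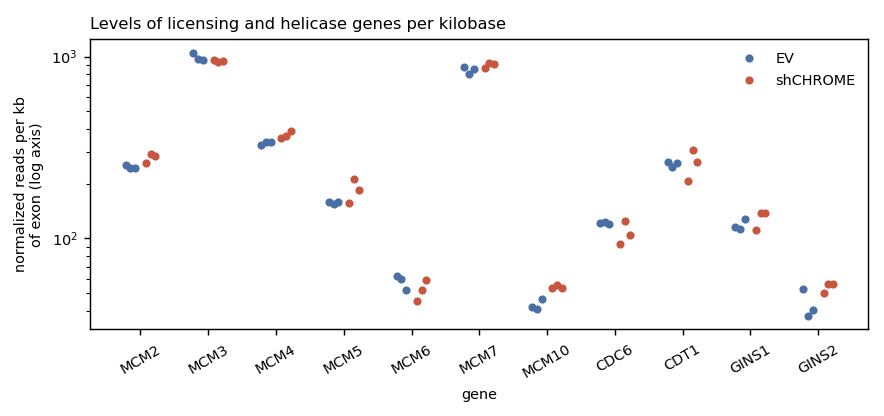
Normalized read count per kilobase of exon, on a log axis, for the genes of licensing and the helicase; each point is 1 library, EV in blue and shCHROME in red. MCM3 and MCM7 lie far above MCM6 in both groups, from 994 down to 57.8 in EV, and the order of the 6 ring subunits is the same in shCHROME.

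At the replication fork all 4 genes had a positive log2 fold change, with a median of 0.14. PCNA, the sliding clamp, was 2415, 2380 and 2354 in EV and 2756, 2414 and 2685 in shCHROME. Replicates a and c were above EV and replicate b lay just below the highest EV library (0.13, limma adjusted p = 0.211). POLA1, the catalytic subunit of the primase-associated polymerase alpha, was 1383, 1452 and 1363 against 1527, 1650 and 1487, without overlap (0.15, adjusted p = 0.182). The clamp loader subunits RFC3 (0.18) and RFC4 (0.08) were positive and not called.

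In nucleotide supply the shCHROME libraries disagreed. RRM1, the large subunit of ribonucleotide reductase, was 898, 922 and 952 in EV and 863, 980 and 1184 in shCHROME. Replicate a was below every EV library and c above every one, with a log2 fold change of 0.12 (limma adjusted p = 0.507) that turned to -0.006 without shCHROME c. RRM2, the regulated small subunit (0.14), and TYMS, which makes thymidylate (0.15), had the same layout, and neither was called. The exons of TYMS overlap those of ENOSF1, on the opposite strand, over 58.2% of their length. Those of RRM2 overlap a gene on the same strand over 27.9%. How reads in such stretches were counted is not stated, so both values are less certain.

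None of the 5 genes of entry into S phase was called, and 4 of them had negative log2 fold changes. The median log2 fold change of the 5 was -0.15, and the group's median difference from the EV mean was -0.14 in shCHROME a, -0.17 in b and -0.16 in c. These 3 medians lay close together, and the median log2 fold change of the role stayed between -0.19 and -0.10 in the 16 alternatives. The alternatives reuse the same 6 libraries, and roles were chosen with earlier results of these data known, so neither point supports a shift. CCND1, the cyclin D1 gene that couples growth signals to CDK4 and CDK6, was 4653, 4741 and 5312 in EV and 4559, 4342 and 4383 in shCHROME. All 3 shCHROME values were below all EV values (-0.14, 95% interval -0.27 to -0.02, limma adjusted p = 0.15). On the wider lists below, 10 of 14 CDKs, D cyclins and CDK phosphatases had positive log2 fold changes (median 0.07). So did 13 of 18 cell cycle transcription factors and pocket proteins (median 0.06).

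CCNE1, the cyclin E1 gene, was 718, 768 and 780 in EV and 684, 651 and 658 in shCHROME, again without overlap (-0.18, adjusted p = 0.162). CDK2, the partner kinase of cyclin E, was 821, 841 and 806 against 785, 759 and 686 (-0.15, adjusted p = 0.275). CCNE1 and CDK2 were thus lower in each of the 3 shCHROME libraries than in any EV library, as were 15% of all tested genes. Neither CCNE1 nor CDK2 passed the threshold in any of the 16 alternatives. CCNE2 had low values, 65.8, 61.2 and 37.8 in EV and 44.8, 33.1 and 47.8 in shCHROME, with overlap (-0.36, adjusted p = 0.423 in limma). E2F1, the transcription factor of the S-phase program, was the exception in this role, at 0.06 (adjusted p = 0.81), and its shCHROME values spanned the EV range. Overlap with other genes covers 47.5% of the exon length of CCNE2, 11.8% of CDK2 and 11.3% of CCND1.

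CDK1 and the 3 mitotic cyclins all had positive log2 fold changes, with a median of 0.18. CDK1, the kinase that drives entry into mitosis, was 469, 515 and 516 in EV and 567, 618 and 633 in shCHROME. Each shCHROME library was above each EV library, replicate a included, and the log2 fold change was 0.28 (95% interval 0.09 to 0.46). The limma adjusted p was 0.0553, and it passed under 4 of 16 alternatives: upper quartile scaling (0.0454), library totals (0.0269), DESeq2 (0.0487) and leaving out shCHROME a (0.0344). CCNA2, cyclin A2, which acts in S phase and early mitosis, was 448, 554 and 521 in EV and 549, 620 and 625 in shCHROME. Replicate a fell within the EV range and the fold change was 0.24 (adjusted p = 0.135). CCNB1, the main cyclin B, was 828, 815 and 781 against 815, 926 and 882 (0.11, adjusted p = 0.425), and CCNB2 was at 0.04.

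**Figure D5:**
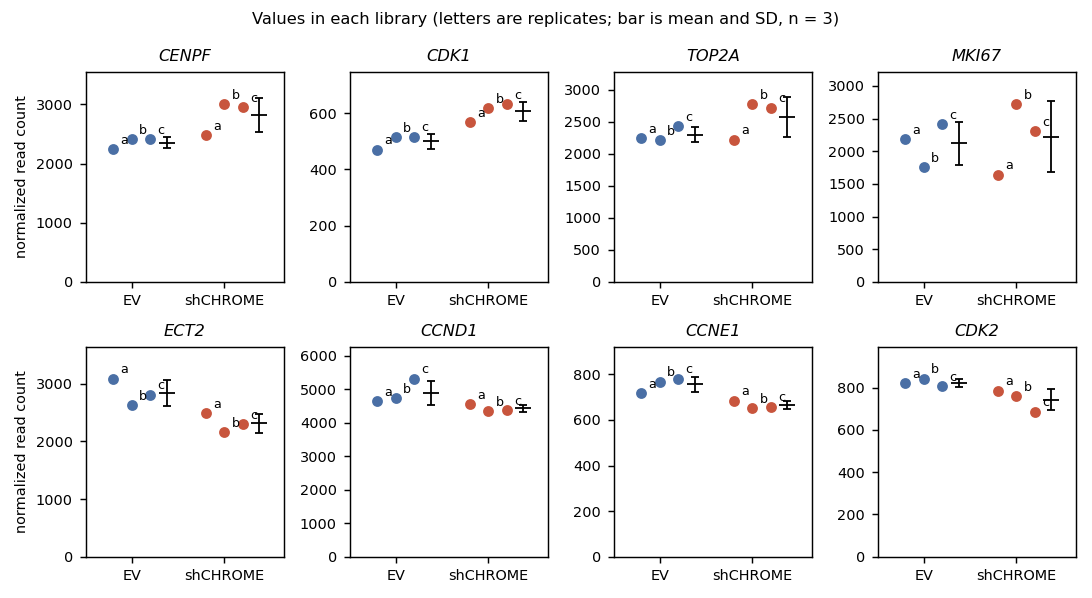
Normalized read count in each library for 8 members, with EV in blue, shCHROME in red, letters for replicates, and bars for mean and SD (n = 3 per group). CENPF and CDK1 are higher in all 3 shCHROME libraries, ECT2, CCND1, CCNE1 and CDK2 are lower in all 3, and MKI67 and TOP2A in shCHROME a lie among or below the EV values.

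The 6 kinases and checkpoint genes had a median of 0.07 (0.003 without shCHROME b, 0.03 without c and 0.19 without a), with 5 positive and none called. AURKA, the centrosome kinase, was 1310, 1208 and 1251 in EV and 1208, 1375 and 1469 in shCHROME, with replicate a level with the lowest EV library (0.10, limma adjusted p = 0.477). AURKB (0.003), PLK1 (0.03) and BUB1 (-0.03) were near 0, while BUB1B (0.12) and TTK (0.13) were higher, overlapped EV and were not called. Of the other centromere genes, CENPA, the centromeric histone, was at -0.002, the motor CENPE at 0.15 and NDC80, which links kinetochores to microtubules, at 0.22 with an interval of -0.22 to 0.66. CENPF was the called gene among the 4 of this role.

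The 5 spindle motors and binding proteins were all positive, with a median of 0.09 (0.04 without shCHROME b, 0.03 without c and 0.18 without a). KIF20A, a kinesin of the central spindle, was 434, 602 and 564 in EV and 554, 727 and 647 in shCHROME, with replicate a inside the EV range (0.27, limma adjusted p = 0.161). TPX2, which activates Aurora A on the spindle, was 1494, 1460 and 1551 against 1322, 1777 and 1723. Replicate a lay below every EV library and b and c above every one (0.09, adjusted p = 0.617). The motors KIF11 (0.08) and KIF23 (0.10) and the microtubule bundler NUSAP1 (0.02) were not called. About 72.8% of the exon length of NUSAP1 overlaps another annotated gene on the same strand.

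For exit from mitosis and cytokinesis the median was -0.03 (0.02 with library totals as scaling, 0.08 without shCHROME a, -0.07 without b and -0.10 without c), from the 4 genes CDC20 (0.04), BIRC5 (0.02), ANLN (-0.07) and ECT2. CDC20 activates the anaphase-promoting complex, BIRC5 is survivin of the chromosomal passenger complex, and ANLN is the furrow scaffold anillin. ANLN and ECT2 act at the same furrow, but ANLN was 1021, 947 and 979 in EV and 815, 953 and 1049 in shCHROME, with overlap.

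MKI67 and TOP2A, common proliferation markers, were not called. TOP2A, which untangles sister DNA, was 2245, 2211 and 2431 in EV and 2219, 2776 and 2720 in shCHROME (0.16, limma adjusted p = 0.226). MKI67, which coats mitotic chromosomes, was 2189, 1758 and 2411 against 1640, 2725 and 2304 (0.05, 95% interval -0.23 to 0.33, adjusted p = 0.87). In both genes shCHROME a was the lowest of its group, and the interval for MKI67 leaves its direction unresolved at 3 libraries per group.

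Wider lists of cell cycle genes share no gene with the 48. Their counts of called genes stand beside 3.64% of all tested genes called higher and 6.87% called lower, and with so few calls a list nothing is read from them. Of 51 other replication genes, 35 were positive with a median of 0.06, and 1 rose and 1 fell: RFC2, a clamp loader subunit (0.29, limma adjusted p = 0.0494), and POLE3, a small subunit of polymerase epsilon (-0.23, 0.0348). Of 76 other mitotic genes, 47 were positive with a median of 0.05 (0.03 without shCHROME b, 0.02 without c and 0.09 without a), 6 rose and 1 fell. The lowest adjusted p among these belonged to LMNB1, lamin B1 (0.35, 0.0102), STMN1, a microtubule destabilizer (0.28, 0.0191), and ZWINT, a kinetochore protein (0.48, 0.0239), all of which rose. The other mitotic genes had median log2 differences from the EV mean of -0.08 in shCHROME a, 0.11 in b and 0.13 in c. Those of the other replication genes were 0.01, 0.08 and 0.09, so that replicate a was not below EV in that list. Among 18 subunits and partners of the anaphase-promoting complex none was called, and ANAPC1, the most abundant, was at 0.02.

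Calls among regulators of the cycle went in both directions. The shares over all tested genes were 3.64% called higher and 6.87% called lower, and nothing is read from these counts. Of 18 transcription factors and pocket proteins, E2F7, a repressor of E2F targets, rose (0.48, limma adjusted p = 0.0269) and LIN37, a subunit of the MuvB core, fell (-0.39, 0.0169). Of 14 CDKs, D cyclins and CDK phosphatases, CKS1B rose (0.25, 0.0328), while its paralog CKS2 (-0.37, 0.00299) and the cyclin gene CCND2 (-0.39, 0.00301) fell. Of 13 tested CDK inhibitors and growth arrest genes, none rose and 2 fell, CDKN1A, the p21 inhibitor (-0.32, 0.00289), and CCNG1, cyclin G1 (-0.28, 0.00459). CDKN1A was 4163, 4373 and 3830 in EV and 3478, 3203 and 3201 in shCHROME, without overlap. The median difference of the inhibitor list was 0.06 in shCHROME a, -0.17 in b and -0.16 in c, and its median log2 fold change was -0.06, with -0.24 without shCHROME a and -0.03 without shCHROME b. Of 73 histone genes, matched by the start of their symbol and not curated for replication dependence, 48 were tested and none was called. Their median was 0.02 (-0.001 without EV a), with HIST1H1E, the most abundant, at 0.06.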

How the data were processed

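Libraries were made from total RNA with an Illumina TruSeq kit and sequenced on a HiSeq in pairs, per the labels' protocols. The submitters' processing notes name STAR 2.5, featureCounts 1.5.2, DESeq2 (with version 3.4) and build hg19. Annotation and strand setting are not given in the sources used here. Per gene and library the authors deposited a signal that is never negative, reads divided by a size factor. The deposited table also holds the authors' p-value, adjusted p-value and log2 fold change. Of 24656 rows, 1288 were repeats, which left 23368 genes; 28 symbols stored as dates were restored. In each library every value was a whole number of steps (within 0.01 of a read), so read numbers were recovered for depth, filtering and count tests.

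The main test was limma 3.58.1 on log2(value + 1), with an intensity trend and group as the term, for the 14598 genes that passed filterByExpr (edgeR 4.0.16) on recovered reads. Genes were called at a Benjamini-Hochberg adjusted p under 0.05. Folds are powers of that log2 value, which understates changes of low genes. Alternatives were edgeR quasi-likelihood, DESeq2 1.42.0, 4 other scalings, a pseudocount of 0.1, 2 other filters, the replicate letter as block, and each library left out. Simulated data with known changes were used to check the test. Members, roles and wider lists were chosen with earlier results of these data known. Values per library were given for members called, members whose groups did not overlap, the most abundant of each role, and the 3 uncalled members of lowest adjusted p. Those of CCNE2, ANLN, MKI67, MCM5, KIF20A and CDKN1A were added after they were seen. Of each wider list up to 3 called genes of lowest adjusted p were named, or else the most abundant. Promoters and exon lengths were matched by symbol or gene identifier, without coordinates of hg19.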

Additional observations from a re-analysis of the deposited data

How the results depend on the processing

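Of 336 values of 21 named members under 16 alternatives, 335 kept their direction. RRM1 turned to -0.0061 without shCHROME replicate c (leave-one-out range -0.0061 to 0.2218). Many of the 21 were picked from these data for groups that do not overlap, a low adjusted p or a call under an alternative. Where groups do not overlap, leaving out a library cannot turn the direction, so the tally is no measure of robustness. Of all 48 members, 36 were positive with all libraries, 29 without shCHROME b, 32 without shCHROME c and 40 without shCHROME a. The median log2 fold change lay between 0.07 and 0.16 for the S-phase members and between 0.03 and 0.19 for the mitotic members over the alternatives. Library totals gave 1 S-phase member called higher (MCM10), against 0, and leaving out a library gave 0 to 1. Mitotic members called higher numbered 2 with upper quartile scaling, library totals or DESeq2 and 0 to 5 with a library left out, against 1; called lower, 0 to 1 against 1. Over all genes, 532 were called higher and 1003 lower. Library totals gave 936 higher, and leaving out a library gave 245 to 540 higher and 600 to 1056 lower. The share of calls that were lower was 65.3%, and 42.9% with library totals, which moved the median of all genes by 0.05. Beyond the fewer samples in the fits with a library left out, the cause was not tested.

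The replicate letters did not pair the libraries: the correlation of same-letter deviations was -0.05 for a, -0.09 for b and 0.04 for c. With the letter as a replicate block, 349 genes were called higher over all genes, and CENPF and ECT2 remained the called members. At 3 libraries per group, CENPF was called at 1.19-fold and CDK1 was not at 1.21-fold.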
